A study of Mus musculus with 12 samples.

Results

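The 5 genes described here encode 4 abundant housekeeping RNAs: 7SK (Rn7sk), the 7SL RNA of the signal recognition particle (Rn7s1 and Rn7s2), the RNA of RNase MRP (Rmrp) and the RNA of RNase P (Rpph1). They were taken from the 39174 genes of the deposited expression tables, 592 of which are of the class misc_RNA that all 5 belong to. Rn7sk, Rmrp and Rpph1 were found by their names. The tables name both 7SL genes Metazoa_SRP, a name they share with other genes, so Rn7s1 and Rn7s2 were found by their Ensembl gene IDs, ENSMUSG00000099021 and ENSMUSG00000099250.

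Total RNA had been profiled in 6 axonal and 6 somatodendritic libraries of primary mouse motoneurons. The cultures were of CD-1 background, and Smn had been knocked down in all of them. Motoneurons in the microfluidic chambers used extend axons into a compartment separate from cell bodies and dendrites, and RNA was taken from either side. All 12 libraries carry the knockdown, and libraries of unperturbed neurons were not analysed here. The sources used here do not give the means of the knockdown. As no label tells whether replicates were grown separately, the p-values speak of the spread among these samples, which may be technical. Values are FPKM, read fragments divided by transcript length and by the fragments mapped in the library, after scaling of the libraries to one another by median-of-ratios factors (scaled FPKM).

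7SK binds the kinase complex P-TEFb (Cdk9 with cyclin T) in the nucleus together with Hexim proteins and holds it inactive, which limits elongation by RNA polymerase II. The 7SL RNA is the scaffold of the signal recognition particle, which takes ribosomes that make secreted and membrane proteins to the endoplasmic reticulum and acts mainly in the cytoplasm. RNase P trims the leader off transfer RNA precursors, and RNase MRP cuts precursors of ribosomal RNA. Both enzymes share most of their protein subunits, work mainly in the nucleus and nucleolus, and, like 7SK and 7SL, their RNAs are made by RNA polymerase III.

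Sequences are shown because the likeness of these RNAs, to each other and to annotated copies, bears on how far the values of 7SK, 7SL and RNase P RNA can be read. They are GENCODE M21 transcripts on GRCm38, written 5′ to 3′ as DNA letters, with the first 300 bases where a transcript is longer. Rn7sk lies on the minus strand at chr9:78175303-78175633 and is 331 bases long. Capitals mark GATC, the motif that in human 7SK is bound by HEXIM1, searched on the transcribed strand alone.
Rn7sk: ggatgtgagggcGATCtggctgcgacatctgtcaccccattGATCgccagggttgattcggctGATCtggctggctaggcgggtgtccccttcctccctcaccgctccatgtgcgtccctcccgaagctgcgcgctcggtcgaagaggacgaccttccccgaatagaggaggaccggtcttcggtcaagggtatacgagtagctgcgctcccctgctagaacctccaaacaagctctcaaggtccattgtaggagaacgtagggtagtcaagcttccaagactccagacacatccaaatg
It holds the motif 3 times, at bases 13 to 16, 42 to 45 and 64 to 67. The 4 letters are common, and 78.7% of the 244 transcripts of the same length range and class hold them at least once, with a median of 1.5 occurrences. The 244 include the members and any annotated copies of them in that range, so this share is not independent of 7SK.

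Rn7s1 lies on the plus strand and Rn7s2 on the minus strand of chromosome 12, and both are 300 bases long. Their transcripts have the same base at 300 of 300 positions, with 0 differences. No read within them can be assigned to one of the genes by its sequence, so their levels are given as a sum, called 7SL. Where a rank, fold change, interval or correlation is given per gene, it is that of the values listed for each, which are not separate measurements.

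Rmrp lies on the minus strand at chr4:43492788-43493058 (271 bases), and Rpph1 on the minus strand at chr14:50807449-50807767 (319 bases). Capitals mark every match to GNAANNTC, letters from the conserved core that RNase P and RNase MRP RNAs have in common.
Rmrp: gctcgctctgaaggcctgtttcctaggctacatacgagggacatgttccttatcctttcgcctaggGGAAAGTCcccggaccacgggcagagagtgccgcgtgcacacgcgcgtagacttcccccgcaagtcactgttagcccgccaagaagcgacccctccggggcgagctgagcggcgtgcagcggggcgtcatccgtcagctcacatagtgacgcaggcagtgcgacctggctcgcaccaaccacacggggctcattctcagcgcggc
Rpph1: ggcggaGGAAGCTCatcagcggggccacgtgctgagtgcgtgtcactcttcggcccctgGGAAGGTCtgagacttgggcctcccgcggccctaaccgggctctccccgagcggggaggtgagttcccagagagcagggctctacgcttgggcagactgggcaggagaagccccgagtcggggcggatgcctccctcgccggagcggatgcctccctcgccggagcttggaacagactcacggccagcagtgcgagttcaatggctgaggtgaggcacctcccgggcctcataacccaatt
The letters stand once in Rmrp, at bases 67 to 74, and 2 times in Rpph1, at bases 7 to 14 and 60 to 67. Of the 244 transcripts of this length range, the members among them, 26.6% hold them on the transcribed strand. The letters alone do not show that a stretch belongs to the core, so the 2 matches in Rpph1 need not both lie in it.

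Estimated from the deposited bounds of 1 gene, the libraries were shallow. The width of the deposited confidence bounds of Rn7sk corresponds to 215585 to 728325 mapped reads in axonal libraries and 54193 to 361854 in somatodendritic ones, the lowest being somatodendritic replicate 4. Short non-coding RNA classes made up 12.9 to 22.01% of FPKM in axonal replicates 3 to 6 and 15.7 to 20.9% in their somatodendritic counterparts, against 5.61 to 8.68% and 6.18 to 6.67% in replicates 1 and 2. The labels give no reason for this split, and members' values are given for both sets of replicates. Smn1, the knockdown target, had 0 to 56.2 scaled FPKM on the axonal side and 0 to 15.6 on the somatodendritic side, which without unperturbed libraries does not check the knockdown. Mitochondrial genes held 9.71 to 53.5% of FPKM in axonal libraries and 10.4 to 12.0% in somatodendritic ones.

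The 5 genes were among the most abundant by FPKM in every library, a scale on which few reads of a short RNA make a high value. Together they held 3.97 to 14.2% of all FPKM in axonal libraries and 4.09 to 10.9% in somatodendritic ones, and 70.2 to 74.7% and 62.2 to 73.9% of the FPKM of misc_RNA genes. By FPKM within a library, Rn7s2 ranked between 3 and 8, Rn7s1 between 4 and 10, Rn7sk between 4 and 17, Rpph1 between 9 and 23 and Rmrp between 22 and 92. All 5 passed the filter of a mean scaled FPKM of at least 1.

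**Figure D1:**
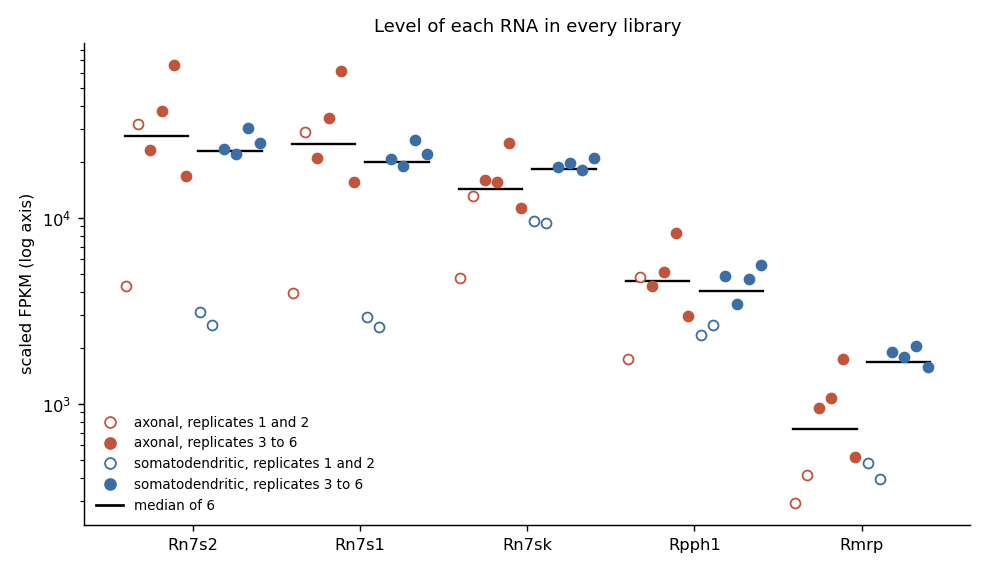
Scaled FPKM (log axis) of each of the 5 genes in each library, axonal libraries left of somatodendritic ones, with replicates 1 and 2 and replicates 3 to 6 in different markers. Over all libraries the groups overlap for all 5 genes, and the lowest values of Rn7s1 and Rn7s2 belong to replicates 1 and 2.

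7SL was the most abundant of these RNAs in all libraries except somatodendritic replicates 1 and 2, where 7SK was higher. It had 8235 and 60940 scaled FPKM in axonal replicates 1 and 2 and 44094, 71935, 127737 and 32265 in axonal replicates 3 to 6. It had 6050 and 5240 scaled FPKM in somatodendritic replicates 1 and 2 and 44101, 41028, 56423 and 47172 in somatodendritic replicates 3 to 6. Axonal replicate 5 was the highest of all and axonal replicate 6 the lowest of replicates 3 to 6, so the compartments overlapped. Within replicates 3 to 6 the axonal libraries averaged 69008 ± 42538 scaled FPKM and the somatodendritic libraries 47181 ± 6652 (SD, n = 4 each). Rn7s2 was listed at 1.08 to 1.11 times the value of Rn7s1 in axonal libraries and 1.03 to 1.17 times in somatodendritic ones.

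7SK varied less. It had 4725 and 13077 scaled FPKM in axonal replicates 1 and 2 and 15899, 15551, 25267 and 11220 in axonal replicates 3 to 6. It had 9613 and 9405 scaled FPKM in somatodendritic replicates 1 and 2 and 18659, 19744, 18059 and 21041 in somatodendritic replicates 3 to 6. Of axonal replicates 3 to 6, replicate 5 was above and the others below all somatodendritic libraries of that set.

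Rpph1 had 1746 and 4800 scaled FPKM in axonal replicates 1 and 2 and 4317, 5109, 8239 and 2982 in axonal replicates 3 to 6. It had 2351 and 2658 scaled FPKM in somatodendritic replicates 1 and 2 and 4866, 3428, 4674 and 5583 in somatodendritic replicates 3 to 6. The axonal values enclosed the somatodendritic ones on both sides.

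Rmrp was the least abundant of the 5 in all 12 libraries. It had 294 and 418 scaled FPKM in axonal replicates 1 and 2 and 952, 1072, 1753 and 518 in axonal replicates 3 to 6. It had 483 and 394 scaled FPKM in somatodendritic replicates 1 and 2 and 1902, 1779, 2052 and 1585 in somatodendritic replicates 3 to 6. Within replicates 3 to 6, axonal replicates 3, 4 and 6 were below all somatodendritic libraries, and axonal replicate 5 lay among them. Its deposited bounds correspond to 25.4 to 95.4 reads in axonal libraries and 27.0 to 135 in somatodendritic ones, so each Rmrp value carries a bound of 17.2 to 39.7% on either side from counting alone. Rn7sk rested on far more, 1014 to 1796 reads in axonal libraries and 375 to 1767 in somatodendritic ones, and Rpph1 on 271 to 587 and 60.5 to 447.

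The order 7SL, 7SK, Rpph1, Rmrp from high to low held in 6 of 6 axonal and 4 of 6 somatodendritic libraries. In somatodendritic replicates 1 and 2, 7SK was above 7SL. The levels of 7SL and 7SK thus overlapped over the libraries, whereas within every library Rpph1 was below 7SK and Rmrp below Rpph1.

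No member passed the test between compartments. In limma on log2(scaled FPKM + 1) with Benjamini-Hochberg adjustment over 14122 genes, 1 gene was called (Fanci, higher in axons), which is 0.00708% of those tested, and 0 of the 5 members were called. At an unadjusted p under 0.05 there were 1248 genes (8.84%) and none of the members, and the exact rank-sum test called 0 genes (0%) and had 7.56% of genes and 0 members at an unadjusted p under 0.05. The compartments' libraries did not overlap for 0 of the 5 members and 0.708% of genes, and within replicates 3 to 6 for 0 members and 3.76% of genes. The axonal minus somatodendritic log2 fold change was 0.92 ± 0.80 (SE, n = 6 per group) for Rn7s1 and 0.89 ± 0.82 for Rn7s2, with limma adjusted p of 0.758 and 0.764. Their 95% intervals were -0.84 to 2.69 and -0.92 to 2.70, which leaves room for a 6.45-fold and 6.50-fold higher axonal level. This fit has no term for the sets of replicates, so the spread between the sets widens these intervals. With such a term the log2 fold changes were again 0.92 and 0.89, with unadjusted limma p of 0.0922 and 0.110 (adjusted p of 0.592 and 0.607). With the replicate number as a block, unadjusted limma p was 0.0662 and 0.0917 (adjusted p of 0.579 and 0.603). Neither 7SL gene was called in any of these fits, and the compartments overlapped over all libraries and within replicates 3 to 6. Within replicates 1 and 2 they did not overlap for 7SL, which with n = 2 per group is not read as a result.

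For Rn7sk the log2 fold change was -0.26 ± 0.35 (SE; 95% interval -1.004 to 0.49; limma adjusted p = 0.829). For Rpph1 it was 0.12 ± 0.31 (95% interval -0.53 to 0.78; limma adjusted p = 0.914). For Rmrp it was -0.70 ± 0.52 (95% interval -1.81 to 0.41; limma adjusted p = 0.707). The median over all genes tested was 0.20, and 24.1% of genes had a lower value than Rn7sk, 8.36% a lower value than Rmrp and 45.7% a lower value than Rpph1. Relative to that median the values were 0.73 for Rn7s1, 0.69 for Rn7s2, -0.45 for Rn7sk, -0.07 for Rpph1 and -0.90 for Rmrp. In bulk samples like these, a difference in how many cells or axons contributed and a difference in RNA per cell cannot be told apart.

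**Figure D2:**
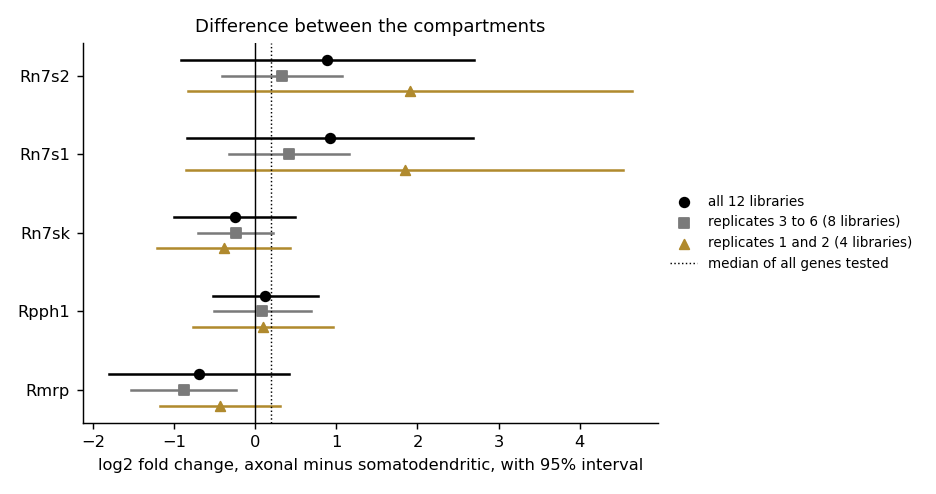
Axonal minus somatodendritic log2 fold change of each of the 5 genes with its 95% interval, over all libraries and within replicates 3 to 6 and replicates 1 and 2. All intervals cross 0 except that of Rmrp within replicates 3 to 6, which runs from -1.53 to -0.24 and did not pass the test after adjustment over all genes.

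Within replicates 3 to 6 the interval of Rmrp lay below 0. Its log2 fold change there was -0.88 ± 0.30 (SE, n = 4 per group), with a limma p of 0.0116 before and 0.752 after adjustment, in a comparison where 6.36% of 13411 genes had an unadjusted p under 0.05 and 0.0522% were called. With a term for the sets of replicates in a fit of all libraries, the log2 fold change of Rmrp was -0.70. Its limma p was 0.00894 before and 0.401 after adjustment, and 0 of the 5 members and 0.0566% of genes were called. The 4 axonal libraries of replicates 3 to 6 averaged 1074 ± 512 and the 4 somatodendritic ones 1830 ± 197 scaled FPKM (SD). In the same libraries the log2 fold change was 0.41 ± 0.34 for Rn7s1, 0.33 ± 0.34 for Rn7s2, -0.24 ± 0.21 for Rn7sk and 0.09 ± 0.27 for Rpph1. Within replicates 1 and 2 it was 1.84 ± 0.98 for Rn7s1, 1.90 ± 0.99 for Rn7s2, -0.39 ± 0.37 for Rn7sk, -0.43 ± 0.33 for Rmrp and 0.09 ± 0.39 for Rpph1 (n = 2 per group). The 7SL value of that set rests on axonal replicate 2 at 60940 scaled FPKM, against 8235 in axonal replicate 1. Mitochondrial genes held 53.5% of FPKM in axonal replicate 2, against 9.71 to 26.4% in the other axonal libraries, and the part of this in the 7SL value was not tested.

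The sets of replicates differed from each other more for some members than for others. The mean of replicates 3 to 6 over the mean of replicates 1 and 2 was 1.995 in axonal libraries and 8.36 in somatodendritic ones for 7SL, and 3.02 and 4.17 for Rmrp. For Rn7sk the same ratio was 1.91 and 2.04, and for Rpph1 1.58 and 1.85. As the sets were formed with the values known, these ratios are a description. The other short RNAs, without the 5 members, held 4.32 to 7.85% of FPKM in replicates 3 to 6 of axons and 5.88 to 10.5% in those of the somatodendritic side, against 1.64 to 2.69% and 2.09 to 2.42% in replicates 1 and 2.

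Ratios between members within a library do not depend on how libraries are scaled. The pairs were formed with the members' values known, so the ratios are given without a test. Of the 6 pairs among the 4 RNAs, 4 did not overlap between compartments within replicates 3 to 6, and 4 within replicates 1 and 2. Among all pairs of genes above 0 in every library, 4.61% and 39.2% did not overlap in these sets, so the smaller set separates many pairs. The 6 pairs share their RNAs and are not independent. The ratio of 7SL to Rmrp was 28.03 and 145.9 in axonal replicates 1 and 2 and 46.3, 67.1, 72.9 and 62.3 in axonal replicates 3 to 6. It was 12.5 and 13.3 in somatodendritic replicates 1 and 2 and 23.2, 23.1, 27.5 and 29.8 in somatodendritic replicates 3 to 6. The axonal ratio was the higher in both sets, with no overlap within either, and only axonal replicate 1 fell below the highest somatodendritic value. The 145.9 is that of axonal replicate 2, the library rich in mitochondrial RNA.

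The ratio of Rmrp to Rpph1, the RNAs with shared protein subunits, was 0.168 and 0.0870 in axonal replicates 1 and 2 and 0.221, 0.210, 0.213 and 0.174 in axonal replicates 3 to 6. In somatodendritic libraries it was 0.205 and 0.148 in replicates 1 and 2 and 0.391, 0.519, 0.439 and 0.284 in replicates 3 to 6. All 4 axonal libraries of replicates 3 to 6 were below all 4 somatodendritic ones, whereas the ratios of replicates 1 and 2 overlapped. Rmrp relative to Rn7sk followed the same pattern, with 0.0462 to 0.0694 in replicates 3 to 6 of axons and 0.0753 to 0.114 in those of the somatodendritic side, and overlapping values in replicates 1 and 2.

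The ratio of 7SL to Rn7sk ranged over 1.74 to 5.06 in axonal libraries and 0.557 to 3.12 in somatodendritic ones. It was 1.74 and 4.66 in axonal replicates 1 and 2, against 0.629 and 0.557 in somatodendritic replicates 1 and 2, with no overlap. Within replicates 3 to 6 it was 2.77, 4.63, 5.06 and 2.88 in axonal libraries and 2.36, 2.08, 3.12 and 2.24 in somatodendritic ones, so that axonal replicates 3 and 6 lay among the somatodendritic ones. The ratio of Rpph1 to Rn7sk was 0.369 and 0.367 in axonal replicates 1 and 2, against 0.245 and 0.283 in somatodendritic replicates 1 and 2. Within replicates 3 to 6 it was 0.272, 0.329, 0.326 and 0.266 in axonal libraries and 0.261, 0.174, 0.259 and 0.265 in somatodendritic ones. The compartments did not overlap within either set, though 0.266 and 0.265 are within counting error of each other, and they overlapped over all libraries. Its lowest value, 0.174, was that of somatodendritic replicate 4, where Rpph1 rested on 60.5 reads. The ratios compare the members with each other and do not show which of the pair differed.

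**Figure D3:**
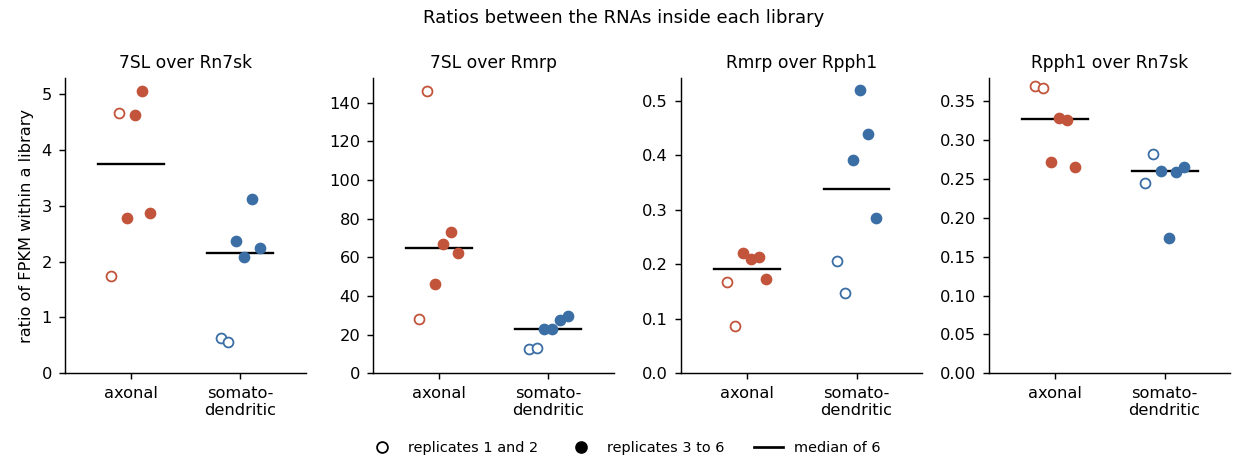
Within-library ratios between members (linear axis) in each axonal library, left, and each somatodendritic library, right, with replicates 1 and 2 and replicates 3 to 6 in different markers. 7SL over Rmrp lies at 46.3 to 72.9 in replicates 3 to 6 of axons and 23.1 to 29.8 in those of the somatodendritic side, and Rmrp over Rpph1 at 0.174 to 0.221 and 0.284 to 0.519.

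Mouse has many annotated near copies of these RNAs. With at least 80% identity over at least 50% of the member as the criterion, which was chosen after the data were seen, 34 other genes in the tables matched Rn7sk, 10 matched 7SL, 4 matched Rpph1 and 0 matched Rmrp. One of the 4 matching Rpph1 is Ccnb1ip1, a protein-coding gene on the same chromosome with an annotated transcript that shares 233 identical bases, which need not be a separate copy and was listed at 0 in all libraries. Of the 34 copies of 7SK, 21 were listed at 0 in all 12 libraries, and 2 had a mean of at least 100 scaled FPKM. Gm24447 (plus strand, chr15:93234363-93234700) is shown as the copy that matches 7SK without a difference over the stretch in capitals, bases 1 to 241 of both.
Gm24447: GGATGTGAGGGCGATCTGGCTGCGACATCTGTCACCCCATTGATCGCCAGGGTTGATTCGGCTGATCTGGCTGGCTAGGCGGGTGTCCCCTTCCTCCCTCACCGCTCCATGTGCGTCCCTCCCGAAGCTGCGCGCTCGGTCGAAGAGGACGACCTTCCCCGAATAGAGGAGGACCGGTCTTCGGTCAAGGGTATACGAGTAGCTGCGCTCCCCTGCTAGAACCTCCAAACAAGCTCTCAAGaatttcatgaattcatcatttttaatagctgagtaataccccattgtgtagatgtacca
It averaged 4083 scaled FPKM over the libraries, and Gm26315, 99.6% identical over 238 bases, averaged 3940. All copies together held 34.2 to 37.6% of the summed 7SK level in axonal libraries and 32.5 to 35.1% in somatodendritic ones. The share held by the copies varied little between libraries. Whether a read came from Rn7sk or from such a copy cannot be told apart over the stretch they share.

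Among the copies of 7SL, Gm22179 on chromosome 6 was the highest, with 98.6% identity over 214 bases and a mean of 4799 scaled FPKM. All copies of 7SL held 9.80 to 12.9% of the summed level in axonal libraries and 10.1 to 13.8% in somatodendritic ones. Gm26461, with 96.5% identity over 201 bases, followed at a mean of 454. The copies of Rpph1 held 20.4 to 21.7% in axonal libraries and 20.1 to 24.0% in somatodendritic ones, nearly all of it Rprl3. Rprl3 had 0.246 to 0.268 times the level of Rpph1 in axonal libraries and 0.243 to 0.297 times in somatodendritic ones. For Rmrp no annotated copy met the criterion, and sequence outside the annotated transcripts was not searched.

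Neighbouring genes were low beside the members. Ccdc107 overlaps Rmrp by 159 bases in the tables' annotation, and the sources used here do not give the strand of the reads, so reads in the shared stretch cannot be assigned by position. Ccdc107 averaged 9.12 ± 5.84 scaled FPKM in axonal libraries and 11.5 ± 12.0 in somatodendritic ones (SD, n = 6 each), far below the level of Rmrp. Rps29, which encodes a ribosomal protein and lies 109 bases from Rn7s1, averaged 87.9 ± 33.0 and 75.5 ± 37.7. Parp2, at 179 bases from Rpph1, averaged 5.76 ± 4.09 and 6.16 ± 4.84, and the long non-coding gene C920006O11Rik, at 281 bases from Rn7sk, was listed at 0 in all axonal libraries and at up to 2.64 in somatodendritic ones. Neither Rps29 nor Parp2 nor Ccdc107 passed the limma test (adjusted p of 0.818, 0.890 and 0.999).

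For 7SK, 7SL and RNase P RNA, the gene whose level most resembled that of a member was a copy of it or the other 7SL gene. Reads over identical stretches cannot be told apart, so a member and its copies need not be separate measurements. Over the 12 libraries, among 5106 genes, the log2 level of Rn7sk had its highest Pearson r with Gm26315 (0.993) and Gm24447 (0.989), both 7SK copies, followed by Dbi (0.932), which encodes an acyl-CoA binding protein. Rn7s1 and Rn7s2 were most like each other (r = 1.00), then like Gm22179 (0.992 for Rn7s1 and 0.991 for Rn7s2) and Rps26 (0.950 for both), a ribosomal protein gene. Rpph1 was most like Rprl3 (0.988) and then like the 7SK copies Gm26315 (0.933) and Gm24447 (0.922).

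Rmrp, for which no copy met the criterion, was most like n-R5-8s1 (0.977) and Gm24601 (0.971), which the tables class as ribosomal RNA. Gm26924 (0.958), classed as a long intergenic RNA, followed. Among the members, r was 0.896 between Rn7sk and Rpph1, 0.892 between Rn7sk and Rmrp, 0.892 between Rn7s1 and Rpph1, 0.803 between Rn7sk and Rn7s1, 0.734 between Rmrp and Rpph1 and 0.696 between Rmrp and Rn7s1. All these values share the libraries and their split into replicates 1 and 2 and replicates 3 to 6, and they are a description.

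The protein partners of these RNAs were far lower than the RNAs themselves, on a scale per length, and none was called. Of the 74 tested genes in 7 lists of partners, related transcripts and nuclear RNAs, 0 were called, against 0.00708% of all genes, and 5 had an unadjusted p under 0.05, in a comparison where 8.84% of all genes did. These were Polr3gl, Polr1d, Gtf3c3, Malat1 and Meg3, all higher in axonal libraries after scaling, whereas with FPKM as deposited 5 genes reached that p, of which 2 were higher and 3 lower. Of the 7 proteins of the 7SK particle, 4 had a log2 fold change above 0 and 3 below, with a median of 0.12, against 0.20 over all genes, of which 61.5% were above 0. Mepce, which caps 7SK, averaged 25.3 ± 11.4 scaled FPKM in axonal libraries and 21.5 ± 9.24 in somatodendritic ones, Cdk9 16.8 ± 6.57 and 15.2 ± 5.21, and Ccnt1, the cyclin T1 gene, 25.8 ± 9.70 and 35.3 ± 22.004 (SD, n = 6 each). The summed level of the 7 genes was 57.8 to 117 in axonal libraries and 79.6 to 158 in somatodendritic ones.

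Of the 8 proteins of the signal recognition particle, 3 were above 0 and 5 below, with a median log2 fold change of -0.32. Srp14, of the part that slows elongation, averaged 35.1 ± 9.86 scaled FPKM in axonal libraries and 46.8 ± 18.2 in somatodendritic ones. Srp19, an assembly protein, averaged 24.7 ± 11.0 and 38.2 ± 19.4, and Srp72 39.3 ± 20.1 and 35.6 ± 7.203. Of the 8 genes of the particle's receptor and of the translocation channel at the endoplasmic reticulum, 5 were above 0 and 3 below, with a median of 0.16. The channel subunits Sec61a1 and Sec61a2 averaged 28.3 ± 12.0 and 37.7 ± 18.1 in axonal libraries, against 34.0 ± 9.63 and 42.1 ± 7.42 in somatodendritic libraries, and Sec62 averaged 18.1 ± 7.35 and 15.4 ± 2.09.

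Of 10 tested proteins of RNase P and RNase MRP, 7 were above 0 and 3 below, with a median log2 fold change of 0.25. The most abundant were Pop5, at 11.8 ± 8.01 scaled FPKM in axonal libraries and 6.04 ± 9.36 in somatodendritic ones, Rpp30, at 11.4 ± 6.80 and 15.0 ± 6.91, and Rpp14, at 4.23 ± 5.08 and 8.57 ± 12.4. For Pop5 and Rpp14 the SD in somatodendritic libraries exceeded the mean. Of 31 genes of RNA polymerase III and its factors, 22 were above 0 and 9 below, with a median of 0.27. Polr1c, a subunit shared with RNA polymerase I, averaged 21.9 ± 16.7 in axonal libraries and 36.2 ± 8.60 in somatodendritic ones. Tbp, the TATA-binding protein, averaged 37.1 ± 12.6 and 26.0 ± 19.8, and Ssb, the La protein that binds the ends of such transcripts, 53.8 ± 17.6 and 49.0 ± 25.2.

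The Y RNAs, also made by RNA polymerase III, ranged more widely between libraries than 7SL. The Y RNA gene Rny1 had 207 to 14948 scaled FPKM in axonal libraries and 234 to 10788 in somatodendritic ones, and Rny3 had 299 to 16117 and 523 to 13870, with log2 fold changes of 0.20 and 0.26 (limma adjusted p of 0.972 and 0.956). The vault RNA gene Vaultrc5 was listed at 0 in all axonal libraries and above 0 in 1 somatodendritic library, at 27.6 scaled FPKM. Of 7 nuclear-retained long non-coding RNAs, 6 were above 0 and 1 below, with a median log2 fold change of 0.43. Malat1, a nuclear speckle RNA, averaged 959 ± 332 scaled FPKM in axonal libraries and 502 ± 101 in somatodendritic ones, which gave 0.88 on the log2 scale at an adjusted p of 0.341 in limma. Meg3 averaged 318 ± 112 and 178 ± 47.2 (log2 fold change 0.81, limma adjusted p = 0.388), and Rian 768 ± 80.6 and 869 ± 115 (-0.17, limma adjusted p = 0.711). Like 7SK, these 3 RNAs were above 0 in every library of either compartment.

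**Figure D4:**
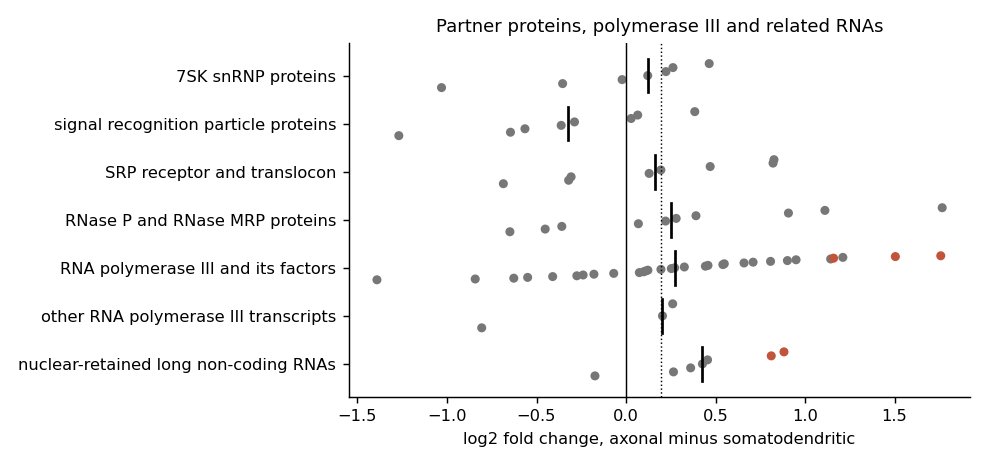
Axonal minus somatodendritic log2 fold change of each tested gene in 7 lists (points), with the median of each list (line) and the median over all tested genes at 0.20 (dotted line). List medians run from -0.32 for the signal recognition particle proteins to 0.43 for the nuclear-retained RNAs, and 0 of the genes were called.

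Motoneuron markers were near 0, and astrocyte markers were the highest of the marker lists. Of 8 motoneuron markers, 7 were in the tables and none passed the filter. Chat and Mnx1 were listed at 0 in all 12 libraries, and the summed level of the markers was 0 to 10.1 scaled FPKM in axonal libraries and 0 to 6.01 in somatodendritic ones. Astrocyte markers summed to 47.6 to 422 and 199.8 to 268, microglia markers to 0.293 to 153 and 9.99 to 25.2, oligodendrocyte and Schwann cell markers to 8.94 to 52.3 and 9.85 to 58.4, and fibroblast markers to 5.11 to 8.83 and 0.950 to 12.1. Haemoglobin genes summed to 5.15 to 76.6 in axonal libraries and 0 to 6.19 in somatodendritic ones, and none of them was called. The 4 tested were all higher in axonal libraries, by a median of 1.88 on the log2 scale. Of these, 3 had an unadjusted limma p under 0.05, as had 8.84% of all genes. The median somatodendritic sum was 0, so these genes passed the filter mainly through their axonal values. Their direction and p-values are therefore not read as a result. The embryonic globin gene Hbb-y, above 0 in 6 of 6 axonal libraries at up to 23.1 scaled FPKM and listed at 0 in all somatodendritic ones, had a limma adjusted p of 0.0694. The part of other cell types in the values of the 5 genes was not tested.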

How the data were processed

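The authors deposited, for each of the 12 libraries, a Cufflinks gene table with FPKM and the bounds of its confidence interval, per the file headers. The submitters' processing notes name FastQC 0.10.1, Cufflinks 2.2.1 and GRCm38. The sources used here do not give the alignment settings, the annotation, any selection of RNA by size, how reads with several matches were treated, or strand. Every FPKM depends on the total of its library, and for RNAs as short as these few reads make a high FPKM.

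Libraries were grouped by their titles and scaled by median-of-ratios factors from 5607 genes listed above 0 everywhere. Genes with a mean scaled FPKM of at least 1 (14122) entered limma 3.58.1 as log2(scaled FPKM + 1) (R 4.3.3, trend and robust moderation, two-sided, Benjamini-Hochberg threshold 0.05), which understates changes of low genes. The limma fit was tried on simulated data with less spread than these libraries and without the split between sets of replicates. It therefore does not show how the fit performs on these libraries. No count test was run, as FPKM are not counts. Reads behind a value were derived from the deposited bounds, taken to lie 2 square roots of the read number from the value, and cover counting error only. Sequences are from GENCODE M21, and that of 7SL is not reported here. Copies were sought with BLAST+ 2.17.0. A symbol on several rows was represented by the row with the higher mean.

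Named genes were the 5 members, the 3 most abundant tested genes of each list with any called, and the 3 genes of highest Pearson r with each member, among genes above 0 in all libraries with a mean of at least 5. Neighbours, copies, the ratios between members, Polr3gl, Polr1d, Gtf3c3, Hbb-y, Chat and Mnx1 were chosen after values were seen. The members and lists were chosen with earlier results of these data known. Of the other RNA polymerase III transcripts, 5 of 7 listed were in the tables and 3 were tested. The alternatives tried were pseudocounts of 0.1 and 5, other scalings and filters, blocks, single sets of replicates, array weights, an exact rank-sum test and libraries left out (Python 3.11.15 with pandas 2.3.3, numpy 2.4.6, matplotlib 3.10.9 and scipy 1.17.1).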

Additional observations from a re-analysis of the deposited data

Results flagged for a closer look

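The ratio of Rpph1 to Rn7sk stood apart in somatodendritic replicate 4, at 0.174, against 0.245 to 0.283 in the other somatodendritic libraries. Of 28 groups of values tested in this way it was the only one, and chance gives about 1 in 20. The part of depth was not tested. By the estimate from the deposited bounds, this library had the fewest mapped reads, and Rpph1 rested on 60.5 of them.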

How the results depend on the processing

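The count of members called was 0 and that of partner genes called was 0 under all 29 alternatives. The number of all genes called, 1 in the fit as reported, was 3 with a pseudocount of 0.1, 8 with a term for the sets of replicates, 7 in replicates 3 to 6 alone, 4 in replicates 1 and 2 alone, 5 with array weights, 0 in the exact rank-sum test (1067 at an unadjusted p under 0.05) and 1 to 11 with each library left out. Leaving out axonal replicate 6 gave the 11, leaving out axonal replicate 1 gave 3, and leaving out replicate 2 or 4 of the axonal group gave 2. A fit without axonal replicates 1 and 2 called 7, and 5 when somatodendritic replicate 4 was left out too, an alternative chosen after seeing the data.

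Samples with the same number did not pair clearly, with correlations of their deviations of 0.242, 0.0411, 0.0207, 0.00639, 0.0714 and 0.000411 for numbers 1 to 6. Both libraries correlated best with their own number for numbers 1 and 5 alone. A replicate block raised the count of genes called to 5, with Rmrp at -0.70 (limma adjusted p = 0.432).

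Rmrp was below 0 and Rn7s1 above 0 in all 29 alternatives, at -1.01 to -0.45 and 0.50 to 1.402 with each library left out. Rmrp was at -0.20 without axonal replicates 1 and 2 and at -0.11 when somatodendritic replicate 4 was left out too, and Rn7s1 was at 0.18 with quantile normalization. The log2 fold change of Rpph1, 0.12 as reported, was -0.14 with FPKM as deposited, -0.23 with a common FPKM sum, -0.068 with a common sum of protein-coding FPKM, -0.43 with quantile normalization, -0.045 with array weights, and -0.083 to 0.37 with each library left out, below 0 without axonal replicate 5 (-0.083) and without somatodendritic replicate 1 (-0.015). That of Rn7s2 was -0.17 with quantile normalization and 0.45 to 1.37 with each library left out. That of Rn7sk was -0.46 to 0.03 with each library left out, the 0.03 being without axonal replicate 1, 0.095 in the fit without axonal replicates 1 and 2, and 0.13 without these and somatodendritic replicate 4. With FPKM as deposited, Rn7sk at -0.52 and Rmrp at -0.96 had unadjusted limma p of 0.0350 and 0.0243 (adjusted p of 0.610 and 0.585). With a common FPKM sum they were at -0.61 and -1.05, with unadjusted limma p of 0.0161 and 0.0108 (adjusted p of 0.683 for both). Unadjusted limma p was also under 0.05 for Rpph1 with quantile normalization (0.0414) and for Rmrp without somatodendritic replicate 2 (0.0478). For Rmrp it was lower still in replicates 3 to 6 alone (0.0116) and with the term for the sets of replicates (0.00894). The lowest unadjusted limma p of any member was that of Rmrp with the replicate block (0.00485, adjusted p of 0.432). The median of all genes was 0.00 with FPKM as deposited, against 0.20 with scaling, and -0.07 with a common FPKM sum. The cause of these reversals was not tested. Depth limits Rmrp most, with 25.4 to 95.4 reads in axonal libraries.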
